A study of Mus musculus with 15 samples.

Results

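The 10 genes described here run the shape, number and upkeep of mitochondria: Mfn1, Mfn2, Opa1, Dnm1l, Fis1, Mff, Ppargc1a, Tfam, Pink1 and Rhot1. They were chosen by gene symbol, matched to the Ensembl identifiers of the count table, and make up 10 of 54232 identifiers in the table and 10 of the 18278 genes with enough reads to test. No threshold on a measured value entered the choice, but the list was drawn up with results of these libraries known, so the p-values below are not independent evidence. Each library holds the striatal RNA of a separate mouse, taken at 6 months of age, and the genotypes are E1 (n = 4), KI-96 (n = 4) and WT (n = 7). The study's title places the E1 and KI-96 mice in work on knock-in models of Huntington's disease and on RAN translation, which reads expanded repeats without a start codon. The labels give the genotypes by these names alone, without the allele, strain or sex.

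Mitochondria constantly fuse and divide. Mitofusins, the large GTPases encoded by Mfn1 and Mfn2, join the outer membranes, and the dynamin-like GTPase encoded by Opa1 joins the inner ones and holds the folds of the inner membrane in shape. Division is carried out by Drp1, the cytosolic dynamin encoded by Dnm1l, which adaptors such as those encoded by Mff and Fis1 bring to the outer membrane. New mitochondria are built under PGC-1α, the transcriptional coactivator encoded by Ppargc1a. Tfam encodes a protein that packages mitochondrial DNA and takes part in its transcription. Pink1 encodes a kinase that marks damaged mitochondria for removal, and Rhot1 encodes Miro1, which links mitochondria to the motors of axons. PGC-1α in the striatum has been studied in Huntington's disease, where mutant huntingtin was reported to repress its transcription.

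Total counts per library were 18199927 to 19533231 in E1, 14678565 to 23373551 in KI-96 and 17281603 to 26388542 in WT. All 14 markers of spiny projection neurons, the main cells of the striatum, were detected in every library, and their summed level was 8582 to 12912 CPM (read counts divided by the library size as scaled by edgeR) in E1, 7423 to 11717 CPM in KI-96 and 7770.2 to 12142 CPM in WT. All 4 E1 libraries, all 4 KI-96 libraries and WT replicate 1 had at most 0.132 CPM of Y-linked reads and held 891 to 1626 CPM of Xist, the RNA of the inactive X chromosome, whereas WT replicates 2 to 7 held 158 to 205 CPM of Y-linked reads. Sex and genotype therefore cannot be told apart for most of these mice. Cortical excitatory neuron markers were high in E1 replicates 2 and 3 and in WT replicate 3, with a mean log2 CPM of 5.31 to 5.73 against 2.47 to 3.63 in the other 12 libraries. The summed level of these 15 markers was 704 to 2087 CPM in E1, 786 to 1012 in KI-96 and 692 to 2003 in WT, and Neurod1 was at 0 in the lowest E1 library. Astrocyte markers (12 genes) summed to 4331 to 5006 CPM in E1, 4809.7 to 5595 in KI-96 and 4729 to 5619 in WT. Microglia markers (10 genes) summed to 398 to 490.2 CPM in E1, 322 to 548 in KI-96 and 392.2 to 537 in WT, and endothelial and mural markers (10 genes) to 263 to 342, 265 to 342 and 229 to 373 CPM in the same order. Choroid plexus and ependymal markers (10 genes) summed to 53.7 to 149 CPM in E1, 56.3 to 134 in KI-96 and 83.7 to 467 in WT. Blood markers (5 genes) summed to 61.1 to 513 CPM in E1, 87.2 to 142 in KI-96 and 79.2 to 216 in WT. KI-96 replicate 3 stood apart on the first principal component, at 73.0 against -34.7 to 23.1 in the other 14. On the second component WT replicates 5, 6 and 7 were lowest, at -32.1, -33.0 and -30.5, against -19.8 to 39.3 in the others.

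The sequence upstream of the start site is shown for the genes around which the values below turn. These are Ppargc1a and Mfn2, whose fold changes were the largest against WT, and Opa1 and Fis1. In CPM, Opa1 and Fis1 were at opposite extremes in KI-96 replicate 3. Each line holds 250 bases that end just before a start site in RefSeq (GRCm38.p6), 5′ to 3′ on the strand of the gene. The Ppargc1a window is chr5:51567726-51567975 on the minus strand, and the Mfn2 window is chr4:147904910-147905159 on the minus strand, the most upstream of 3 start sites. The Opa1 window is chr16:29579084-29579333 on the plus strand, and the Fis1 window is chr5:136953025-136953274 on the plus strand. Capitals mark the match to a motif, the core bound by the factor NRF-1 in Opa1 and CCGGAAG in Fis1.
Ppargc1a: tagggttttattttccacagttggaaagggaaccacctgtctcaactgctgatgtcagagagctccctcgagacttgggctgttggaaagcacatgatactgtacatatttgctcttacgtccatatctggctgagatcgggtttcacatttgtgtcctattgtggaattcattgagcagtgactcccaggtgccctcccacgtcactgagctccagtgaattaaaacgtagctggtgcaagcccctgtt
Mfn2: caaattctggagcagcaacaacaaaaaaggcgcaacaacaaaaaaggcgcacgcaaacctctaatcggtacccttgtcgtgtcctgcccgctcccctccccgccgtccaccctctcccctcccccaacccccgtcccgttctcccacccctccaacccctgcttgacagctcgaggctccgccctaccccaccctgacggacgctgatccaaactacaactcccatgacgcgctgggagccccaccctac
Opa1: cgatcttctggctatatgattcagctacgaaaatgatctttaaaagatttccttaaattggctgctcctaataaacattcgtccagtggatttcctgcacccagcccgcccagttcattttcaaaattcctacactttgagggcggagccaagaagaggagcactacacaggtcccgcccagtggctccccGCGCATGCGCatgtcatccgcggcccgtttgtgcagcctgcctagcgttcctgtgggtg
Fis1: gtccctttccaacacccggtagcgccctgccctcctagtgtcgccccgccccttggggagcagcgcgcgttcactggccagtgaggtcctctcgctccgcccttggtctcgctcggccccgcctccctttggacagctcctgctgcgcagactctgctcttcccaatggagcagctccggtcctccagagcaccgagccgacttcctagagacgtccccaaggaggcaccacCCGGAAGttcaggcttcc

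All 10 genes were matched to the RefSeq windows, with 15 windows in all. The search on both strands covered TGACGTCA, the cyclic AMP response element, present in 1.55% of 32851 windows of this length. It also covered the NRF-1 core shown in capitals in the Opa1 line, in 0.782% of windows, AAGGTCA, the binding site of estrogen-related receptors, in 4.08%, and CCGGAAG, an ETS site of the kind GABPA binds, in 6.91%. The NRF-1 core was found 59 bases before the start of Opa1. The ETS site was found 44 bases before the start of Mfn1, 18 before that of Fis1 and 47 before that of Tfam. No window held more than 1 match, and the Ppargc1a window held none of the 4 motifs. A match describes letters in the window and shows no binding.

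Levels between genes can be set side by side only per length, as TPM, the unit that divides counts by length before scaling to the library total. The length used here was that of all annotated exons of a gene merged, which can exceed that of any 1 transcript and so lower the TPM. It was longest for Mff, at 9757 bases, and the order with other lengths was not tested. Over the 15 libraries Pink1 was the highest of the 10, at 488 ± 75.0 TPM (SD, n = 15), above 99.0% of the genes tested. Fis1 came next at 234 ± 40.9 TPM, followed by Mfn2 at 144 ± 23.2 TPM, Dnm1l at 131 ± 6.45 TPM and Opa1 at 86.8 ± 8.02 TPM. Mfn1 had 44.5 ± 6.70 TPM, Mff 42.8 ± 5.16 TPM, Rhot1 31.3 ± 3.60 TPM, Ppargc1a 24.6 ± 5.61 TPM and Tfam 23.2 ± 2.64 TPM. Tfam, the lowest, still lay above 64.7% of the genes tested.

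The order was much alike in each genotype. Pink1 stood above Fis1 in all 15 libraries, and Fis1 above Mfn2 in all but KI-96 replicate 3. The order of Mfn2 and Dnm1l was not the same in each genotype. Mfn2 was above Dnm1l in 4 of 4 E1 and 4 of 4 KI-96 libraries, while in WT Dnm1l was above Mfn2 in 5 of 7 and the ranges of the pair overlapped. Mfn1 and Mff did not separate in any genotype, and the ranges of Ppargc1a and Tfam overlapped in all 3. Within libraries, Tfam lay above Ppargc1a in 3 of 4 E1 libraries, while Ppargc1a lay above Tfam in 3 of 4 KI-96 and 7 of 7 WT libraries.

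**Figure D1:**
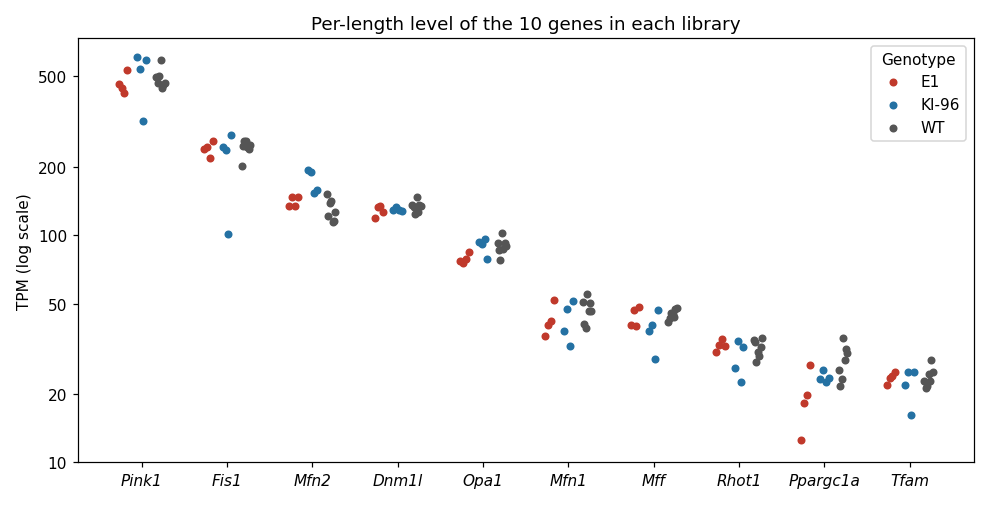
Level per length of the 10 genes in each library, in TPM on a log axis, with the genes ordered by their mean over 15 libraries. Each point is 1 mouse of E1 (n = 4), KI-96 (n = 4) or WT (n = 7); Pink1 leads at a mean of 488 TPM and Tfam ends the order at 23.2 TPM, and the low Fis1 point is KI-96 replicate 3 at 101 TPM.

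None of the 10 genes passed edgeR's quasi-likelihood test at a Benjamini-Hochberg adjusted p under 0.05 in any comparison. In E1 against WT 0 of 10 passed where 0.00547% of all genes did, and 1 of 10, Ppargc1a, had an unadjusted p under 0.05 where 8.75% of all genes did. For KI-96 against WT, 0 of 10 passed where 0% of all genes did, and 2 of 10, Mfn2 and Mff, had an unadjusted p under 0.05 against 10.5% of all genes. In KI-96 against E1 0 of 10 passed where 0% of all genes did, and 3 of 10, Mfn2, Opa1 and Ppargc1a, had an unadjusted p under 0.05 against 14.3% of all genes.

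The ranges of the groups overlapped for all 10 genes in each comparison. Over all genes tested the groups did not overlap for 1.69% in E1 against WT, 1.29% in KI-96 against WT and 4.79% in KI-96 against E1. The median log2 fold change of the 10 genes was -0.02 in E1 against WT, -0.07 in KI-96 against WT and 0.05 in KI-96 against E1, beside medians of -0.00, -0.01 and -0.00 over all genes. Their median absolute log2 fold change was 0.05, 0.11 and 0.16 in the same order, beside 0.14, 0.15 and 0.20 over all genes. The comparisons share samples pairwise, so their values are not independent of each other. DESeq2 called 1 of the 10, Mfn2 in KI-96 against WT, where it called 0.361% of all genes. It called none in E1 against WT (0.29% of all genes) or in KI-96 against E1 (1.13%), and limma-voom called none in any comparison (0.0109%, 0.00547% and 0% of all genes).

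**Figure D2:**
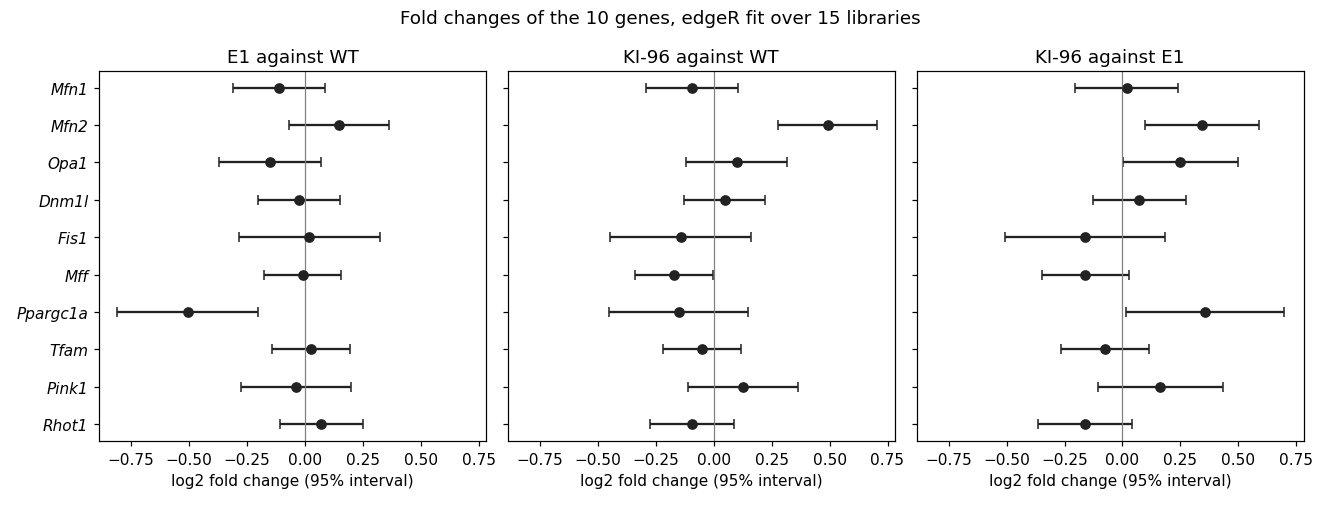
Log2 fold changes of the 10 genes in E1 against WT, KI-96 against WT and KI-96 against E1, from the edgeR fit over 15 libraries. Points are estimates and bars 95% intervals; Ppargc1a at -0.51 in E1 against WT and Mfn2 at 0.49 in KI-96 against WT lie farthest from 0, and no gene passed the adjusted threshold.

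Among the fusion genes, Mfn2 (ENSMUSG00000029020, chromosome 4, 147873599 to 147904704, minus strand) had the largest difference. It had 299, 269.7, 281 and 219 CPM in KI-96, and 211, 222, 202 and 208 CPM in E1. In WT the lowest library had 162 CPM, the median was 186 and the highest had 226. KI-96 replicates 1, 2 and 3 stood above every E1 and every WT library, and KI-96 replicate 4 lay within the range of both. In a bulk sample, more or fewer cells that express a gene and more or less of its RNA per cell cannot be told apart. The KI-96 mean was 267 ± 34.3 CPM (SD, n = 4), against 190.2 ± 22.3 (n = 7) in WT. The log2 fold change of KI-96 against WT was 0.49 (SE 0.10, 95% interval 0.28 to 0.71), which ranked 6 by p among 18278 genes, with an edgeR adjusted p = 0.241. The adjusted p of DESeq2 was 0.00529 and that of limma-voom 0.282.

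The WT library highest in Mfn2, at 226 CPM, was replicate 1, the one without Y-linked reads, and the other 6 WT libraries had 162 to 211 CPM. With Y-linked reads as a covariate the log2 fold change of Mfn2 in KI-96 against WT was 0.24 (adjusted p = 1.00), and that comparison then rests on WT replicate 1 alone. Between the genotypes that both lacked Y-linked reads, KI-96 and E1, the log2 fold change of Mfn2 was 0.34 (SE 0.12, 95% interval 0.10 to 0.59, adjusted p = 0.243). For E1 against WT it was 0.15 (SE 0.10, adjusted p = 0.676), and -0.10 with the Y-linked covariate. WT replicates 5, 6 and 7, the deepest libraries, had 172, 162 and 186 CPM of Mfn2. Without them its log2 fold change was 0.39 in KI-96 against WT (edgeR adjusted p = 0.991) and 0.05 in E1 against WT.

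Mfn1 (ENSMUSG00000027668, chromosome 3, 32529465 to 32579239, plus strand), the other mitofusin, had 66.8 to 86.5 CPM in E1, 69.0 to 84.0 in KI-96 and 70.1 to 88.9 in WT. Its log2 fold change was -0.11 (SE 0.09) in E1 against WT and -0.09 (SE 0.09) in KI-96 against WT, with adjusted p-values of 0.732 and 0.746. The 95% intervals, -0.31 to 0.09 and -0.29 to 0.10, include 0 and a decrease of about that size. Per length there was more Mfn2 than Mfn1 RNA in every library. The ratio of Mfn2 to Mfn1 TPM was 3.36 ± 0.42 (SD, n = 4) in E1, 4.23 ± 0.89 (n = 4) in KI-96 and 2.80 ± 0.42 (n = 7) in WT, and in KI-96 it reached 5.11 in replicate 1 and was 3.07 in replicate 4.

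Opa1 (ENSMUSG00000038084, chromosome 16, 29579334 to 29654884, plus strand) had 184, 172, 179 and 181 CPM in E1 and 218, 198, 269.5 and 165 CPM in KI-96. In WT the lowest library had 179.5 CPM, the median was 198 and the highest had 211. The E1 libraries sat close together at the low end of the WT range or below it, and the KI-96 libraries spread from below all others to above all others. Its log2 fold change was -0.15 (SE 0.10, adjusted p = 0.676) in E1 against WT, 0.10 (SE 0.10, adjusted p = 0.755) in KI-96 against WT and 0.25 (SE 0.12, adjusted p = 0.343) in KI-96 against E1. Without KI-96 replicate 3, its highest library, the KI-96 values were -0.03 against WT and 0.12 against E1.

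**Figure D3:**
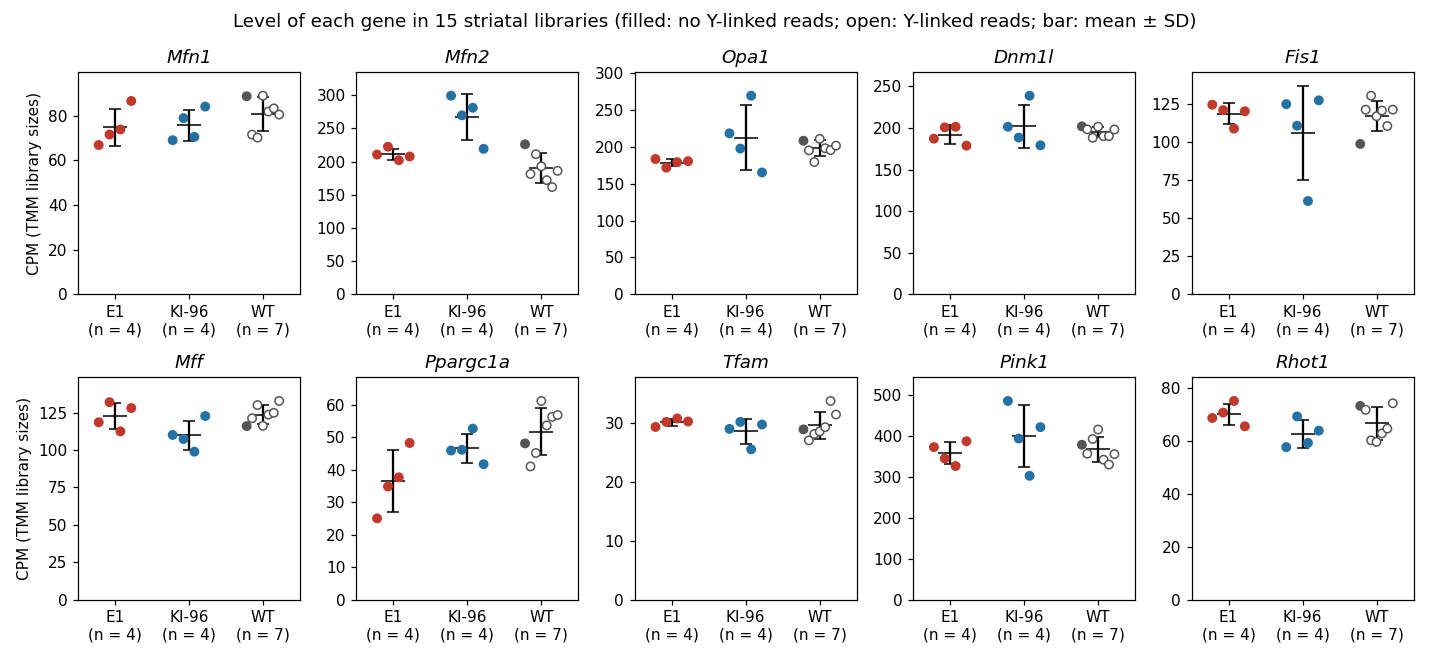
Level of each of the 10 genes in every library, in CPM on an axis from 0, with bars for the mean ± SD of E1 (n = 4), KI-96 (n = 4) and WT (n = 7). Filled points are libraries without Y-linked reads and open points libraries with them; 3 of 4 KI-96 points for Mfn2 lie above all WT points and 3 of 4 E1 points for Ppargc1a lie below them.

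No fission gene passed in any comparison. In CPM, KI-96 replicate 3 held the highest Dnm1l and the lowest Mff and Fis1 of the 15 libraries. Dnm1l (ENSMUSG00000022789, chromosome 16, 16312230 to 16358959, minus strand) had 179 to 201 CPM in E1, 179 to 239 in KI-96 and 188 to 202 in WT. Its log2 fold change was -0.03 (SE 0.08) in E1 against WT and 0.05 (SE 0.08) in KI-96 against WT, and the 95% intervals of the fold were 0.869 to 1.11 in E1 and 0.914 to 1.17 in KI-96. Mff (ENSMUSG00000026150, chromosome 1, 82724890 to 82752394, plus strand), the main receptor for Drp1, had 110.1, 107, 98.9 and 123 CPM in KI-96. It had 119, 132, 112 and 128 CPM in E1, and 116, 124 and 133 CPM in the lowest, median and highest WT library. KI-96 replicates 1, 2 and 3 stood below every WT and every E1 library, and KI-96 replicate 4 lay within both ranges. The log2 fold change of Mff was -0.17 (SE 0.08, unadjusted p = 0.0466, adjusted p = 0.468) in KI-96 against WT and -0.16 (SE 0.09, adjusted p = 0.415) in KI-96 against E1. In E1 against WT it was -0.01 (SE 0.08). With the Y-linked covariate, where the comparison rests on WT replicate 1 alone, the value of Mff in KI-96 against WT was -0.08. Overlapping gene models at Mff averaged at most 40.9 counts per library, and the labels do not say whether counting used strand.

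Fis1 (ENSMUSG00000019054, chromosome 5, 136953275 to 136966234, plus strand) had 125, 111, 61.3 and 127 CPM in KI-96 and 125, 121, 109 and 120.3 CPM in E1. In WT the lowest library had 98.8 CPM, the median was 121 and the highest had 131. KI-96 replicate 3 lay far below all other libraries, and the remaining KI-96 and E1 values fell inside the WT range. The log2 fold change was -0.14 (SE 0.15, adjusted p = 0.747) in KI-96 against WT and 0.02 (SE 0.14, adjusted p = 0.981) in E1 against WT. Without KI-96 replicate 3 the KI-96 value was 0.05. The lowest WT library was replicate 1, and with the Y-linked covariate the KI-96 value was 0.10.

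KI-96 replicate 3 also stood apart in its balance of long and short genes. Among 10006 genes of at least 10 CPM, long genes (at least 8466 exonic bases) exceeded short genes (at most 2941 bases) in this library by 0.81 in median log2 deviation, while in the other 14 libraries this balance was -0.26 to 0.11. In CPM the library held the lowest Fis1, Mff, Tfam and Pink1 of all 15 and the highest Opa1 and Dnm1l. Mitochondrial genes took 3.62% of its counts, against 4.57% to 6.37% in the others. The exonic length, with all annotated exons merged, is 1714 bases for Fis1, 2673 for Pink1 and 4438 for Tfam. It is 7875 for Opa1 and 5203 for Dnm1l, but 9757 for Mff, the longest of the 10 and the only one above 8466. Rhot1 (7414), Ppargc1a (6592), Mfn1 (6114) and Mfn2 (5194) were at neither extreme of CPM in this library. In TPM, however, it also held the lowest Mfn1 and Rhot1 of all 15, at 32.5 and 22.5. Its Opa1, at 96.5 TPM, and Dnm1l, at 129 TPM, then lay within the range of the other libraries. The part of length or RNA quality in these values was not tested. Without this library the log2 fold change in KI-96 against WT was -0.04 for Dnm1l, -0.12 for Mff, 0.00 for Tfam and 0.47 for Mfn2.

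**Figure D4:**
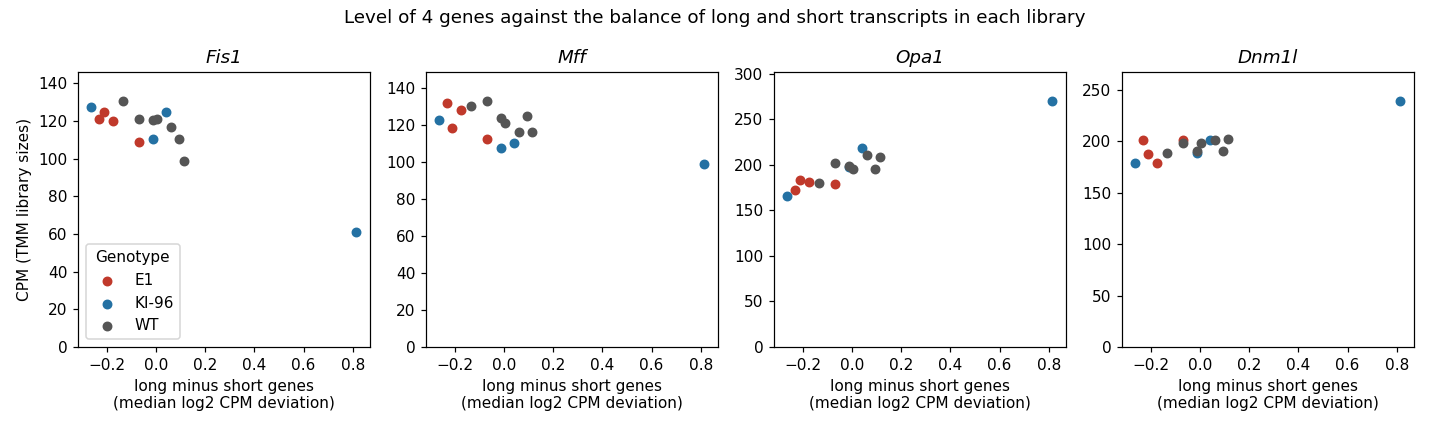
CPM of Fis1, Mff, Opa1 and Dnm1l in each of 15 libraries of E1, KI-96 and WT against the balance of long and short genes in that library, the difference of their median log2 CPM deviations. The point at 0.81 is KI-96 replicate 3, which has the lowest Fis1 and Mff and the highest Opa1 and Dnm1l.

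Summed per length, the fusion genes Mfn1, Mfn2 and Opa1 had 262 ± 15.7 TPM in E1, 305 ± 24.3 TPM in KI-96 and 266 ± 21.2 TPM in WT (SD, n = 4, 4 and 7). The fission genes Dnm1l, Fis1 and Mff had 412 ± 19.0 TPM in E1, 383 ± 84.9 TPM in KI-96 and 421 ± 22.0 TPM in WT. The KI-96 sum was 424 ± 24.3 TPM (n = 3) without replicate 3, which had 259 TPM. The log2 ratio of fusion to fission TPM was -0.65 ± 0.04 in E1, -0.30 ± 0.32 in KI-96 and -0.66 ± 0.14 in WT, and it was -0.44 ± 0.19 in KI-96 without replicate 3. By library it was -0.35, -0.31, 0.12 and -0.66 in KI-96. KI-96 replicate 4 was close to the WT mean, replicates 1 and 2 lay just above the highest WT library, WT replicate 1 at -0.36, and replicate 3 lay above all others. Such a score over chosen genes was given no test.

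Of the biogenesis genes, Ppargc1a (ENSMUSG00000029167, chromosome 5, 51454250 to 51567726, minus strand) had the largest difference in E1. It had 25.1, 34.9, 37.7 and 48.3 CPM in E1, and 46.0, 46.2, 52.7 and 41.8 CPM in KI-96. In WT the lowest library had 41.1 CPM, the median was 53.7 and the highest had 61.3. E1 replicates 1, 2 and 3 lay below every KI-96 and every WT library, E1 replicate 4 lay within the WT range, and all KI-96 libraries lay within it.

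The Ppargc1a mean was 36.5 ± 9.56 CPM (SD, n = 4) in E1, against 51.8 ± 7.21 (n = 7) in WT. The log2 fold change of E1 against WT was -0.51 (SE 0.15, 95% interval -0.81 to -0.20), which ranked 105 by p, with an unadjusted p = 0.00269 and an adjusted p = 0.448. The value depends on which libraries are included. With the Y-linked covariate it was -0.40, a comparison that rests on WT replicate 1 alone. Without WT replicates 5, 6 and 7 it was -0.43 (adjusted p = 0.936). Without E1 replicate 4 it was -0.67 and passed, with an adjusted p = 0.0263, in a fit where 257 of 18676 genes passed, while without E1 replicate 1 it was -0.36, with an adjusted p = 0.795. E1 replicates 2 and 3, with high cortical markers, had 34.9 and 37.7 CPM, between those of the other E1 libraries, and leaving out both of them and WT replicate 3 gave a log2 fold change of -0.53 (adjusted p = 0.968). Markers of myelinating oligodendrocytes, 11 genes led by Mbp and all detected in every library, also spread widely in E1 and in KI-96. Their summed level was 8724, 6358, 5312 and 12824 CPM in E1 replicates 1 to 4, against 8368 to 11727.5 in WT. In KI-96 it was 6378 to 11665 CPM, with the lowest value in replicate 3. E1 replicate 4 was highest in both these markers and Ppargc1a among the E1 libraries, while replicate 3 was lowest in the markers and replicate 1 in Ppargc1a. All 11 had lower estimates in E1 against WT (median -0.38, 0 past the adjusted threshold). Without E1 replicate 4 all 11 again did (median -0.70, 3 past it). In KI-96 against WT 10 of the 11 were lower (median -0.19), and 8 without KI-96 replicate 3 (median -0.02). The part of these markers in the Ppargc1a values was not tested. For KI-96 against WT the log2 fold change of Ppargc1a was -0.15 (SE 0.14, adjusted p = 0.726) and for KI-96 against E1 0.35 (SE 0.16, adjusted p = 0.331). The last was 0.21 without E1 replicate 1.

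Tfam (ENSMUSG00000003923, chromosome 10, 71225464 to 71238280, minus strand), a gene downstream of PGC-1α in the textbook scheme, had 29.4 to 30.8 CPM in E1, 25.5 to 30.2 in KI-96 and 27.1 to 33.8 in WT. All E1 values fell inside the WT range. Its log2 fold change was 0.03 (SE 0.08, 95% interval -0.14 to 0.19) in E1 against WT and -0.05 (SE 0.08, 95% interval -0.22 to 0.12) in KI-96 against WT. The estimate for Ppargc1a in E1 against WT was -0.51, with a 95% interval of -0.81 to -0.20. Any link between the Tfam and Ppargc1a values was not tested.

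Pink1 (ENSMUSG00000028756, chromosome 4, 138313409 to 138326307, minus strand) had 326 to 387 CPM in E1, 302 to 485 in KI-96 and 329.9 to 416 in WT. KI-96 held both its lowest library, replicate 3, and its highest, replicate 1. The log2 fold change was -0.04 (SE 0.11, adjusted p = 0.939) in E1 against WT and 0.13 (SE 0.11, adjusted p = 0.711) in KI-96 against WT. The KI-96 value was 0.02 without KI-96 replicate 1 and 0.24 without KI-96 replicate 3. Rhot1 (ENSMUSG00000017686, chromosome 11, 80209019 to 80267907, plus strand) had 65.6 to 75.2 CPM in E1, 57.7 to 69.3 in KI-96 and 59.7 to 74.3 in WT. KI-96 replicates 1, 3 and 4 lay below all E1 libraries, and the log2 fold change of KI-96 against E1 was -0.16 (SE 0.10, adjusted p = 0.441). It was 0.07 (SE 0.09) in E1 against WT and -0.09 (SE 0.09) in KI-96 against WT.

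The genes also differed in how steady they were between mice of a genotype. The spread within a genotype, as edgeR's biological coefficient of variation, was 10.1% for Mff, 10.3% for Tfam, 10.6% for Dnm1l and 10.8% for Rhot1. Only 3.82% of 2567 genes at a similar level were steadier than Tfam, and 6.99% of 1588 were steadier than Mff. Ppargc1a and Fis1 were the most variable of the 10, at 16.6% and 16.8%, and 77.3% and 79.3% of genes at their levels were steadier. From the lowest to the highest library CPM spanned 2.45-fold for Ppargc1a, 2.13-fold for Fis1 and 1.85-fold for Mfn2, and at most 1.63-fold for each of the others. For Fis1 this spread rests on KI-96 replicate 3. Without it the other 14 libraries spanned 1.32-fold, and the coefficient of variation of CPM was 5.74% in E1, 29.0% in KI-96 (7.45% without replicate 3) and 8.57% in WT.

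Across the 15 libraries the 10 genes did not form 1 shared pattern. As a description over libraries that share genotype, depth and the long-to-short balance, log2 CPM of Opa1 and Dnm1l had a Pearson r of 0.81, and Dnm1l and Fis1 one of -0.82. Without KI-96 replicate 3 these were 0.55 and -0.39. Mfn1 and Ppargc1a had 0.62, and 0.70 without that library, while Mfn2 and Mff had -0.66 and -0.55.

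The most similar patterns among 9840 protein-coding genes, as the highest Pearson r of log2 CPM (n = 15), belonged to other genes. They were Parm1 (0.96), Ubxn2a (0.96) and Pcdh9 (0.93) for Ppargc1a, and Btrc (0.94), Sil1 (0.93) and Neurl4 (0.93) for Mfn2. For Fis1 they were the complex I subunit gene Ndufa2 (0.97), Lamtor4 (0.97) and Gpx4 (0.97), and for Opa1 Trip12 (0.96), Ep400 (0.95) and Syn3 (0.95). Dnm1l was closest to Dennd5b (0.95), Alkbh8 (0.94) and Clock (0.93), and Mff to Mtch2 (0.95), Hmgn3 (0.95) and Fam69b (0.90). Mfn1 was closest to Tmem255a (0.87), Rhobtb3 (0.86) and Ankrd34b (0.84), Pink1 to Pigt (0.92), Aplp1 (0.91) and Glrx5 (0.90), and Rhot1 to Pip4p2 (0.93), Spcs3 (0.87) and Cep83 (0.86). Tfam had the least similar neighbours, Ppa2 (0.80), Mrps24 (0.78) and Gstm1 (0.77). Over the 12 libraries without high cortical markers the r of these 30 pairs ranged from 0.77 to 0.98, and was 0.97 for Ppargc1a with Parm1 and 0.95 for Mfn2 with Btrc. Without KI-96 replicate 3 (n = 14) it ranged from 0.60 to 0.97, with 0.97 for Ppargc1a with Parm1 and 0.94 for Mfn2 with Btrc. It was then 0.76 to 0.84 for the neighbours of Fis1, 0.79 to 0.85 for those of Dnm1l, 0.89 to 0.92 for those of Opa1 and 0.60 to 0.66 for those of Tfam.

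The other genes of these processes gave the same count. Of 115 listed genes, 113 were tested, all but Calcoco2 and Mgarp, and 0 passed the adjusted threshold in any comparison of the fit over 15 libraries. The genes named below as highest or lowest of a list have at least 1 CPM on average. Among 19 other fusion genes 12 had higher and 7 lower estimates in E1 against WT (median 0.06), 7 and 12 in KI-96 against WT (median -0.02) and 8 and 11 in KI-96 against E1 (median -0.07). The highest and lowest were Chchd6, of the complex that shapes inner membrane folds, at 0.33 (SE 0.13), and Pld6, a lipase of the outer membrane, at -0.19 (SE 0.25), in E1 against WT. The inner membrane scaffold gene Phb, at 0.26 (SE 0.10), and Pld6, at -0.37 (SE 0.25), held these places in KI-96 against WT. Phb, at 0.23 (SE 0.11), and Chchd6, at -0.36 (SE 0.14), did so in KI-96 against E1.

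Among 19 other fission genes the medians were -0.01 in E1 against WT, 0.02 in KI-96 against WT and 0.01 in KI-96 against E1, with 8, 11 and 11 higher. This list also holds Miga1 and Miga2, whose proteins are known to promote fusion, with -0.06 and -0.01 in E1 against WT and 0.06 and 0.05 in KI-96 against WT. Mul1, a ubiquitin ligase of the outer membrane, had 0.15 (SE 0.09) and Mtfr1 -0.23 (SE 0.20) in E1 against WT. Mief1, which recruits Drp1, had 0.25 (SE 0.10) and Mtfr1 -0.36 (SE 0.20) in KI-96 against WT. Against E1, KI-96 had 0.26 (SE 0.11) for Mief1 and -0.36 (SE 0.30) for Mtfp1, an inner membrane protein that promotes division.

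Among 33 other biogenesis genes the medians were 0.01, -0.03 and 0.10 in the same order, with 17, 16 and 20 higher. Esrrg, a nuclear receptor that works with PGC-1α, was the lowest in E1 against WT at -0.83 (SE 0.37, adjusted p = 0.549). It averaged 26.4 ± 20.5 CPM (SD, n = 4) in E1, against 46.8 ± 16.5 (n = 7) in WT, and E1 spanned 13.2 to 56.8 CPM. Ppargc1b, which encodes the related coactivator PGC-1β and was singled out after its value was seen, had -0.55 (SE 0.19, adjusted p = 0.484). Ppara, a nuclear receptor that PGC-1α coactivates, had -0.67 (SE 0.24, adjusted p = 0.484). Esrra, another receptor partner of PGC-1α, had 0.14 (SE 0.11, adjusted p = 0.716). Ppara and Esrra were also singled out after their values were seen. The highest was Gabpb1, a partner subunit of GABPA, at 0.22 (SE 0.09). The extremes in KI-96 against WT were Ncor1, a corepressor, at 0.23 (SE 0.12) and Esrrb, a relative of Esrrg, at -0.46 (SE 0.52). Between KI-96 and E1 they were Esrrg at 0.61 (SE 0.41) and Mterf3, a regulator of mitochondrial transcription and translation, at -0.47 (SE 0.17).

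Among 23 other mitophagy genes the medians were 0.01, 0.06 and 0.02, with 12, 16 and 14 higher. Optn, a receptor that brings damaged mitochondria to autophagosomes, had -0.42 (SE 0.18, adjusted p = 0.530) in E1 against WT, and Tomm7, a small import subunit needed to hold Pink1 protein on the outer membrane, had 0.22 (SE 0.16). Ambra1, which promotes autophagy, had 0.22 (SE 0.09) and Tomm7 -0.22 (SE 0.17) in KI-96 against WT. Optn had 0.44 (SE 0.20) and Tomm7 -0.43 (SE 0.19) in KI-96 against E1. Among 19 other transport genes the medians were -0.03, 0.07 and 0.13, with 9, 11 and 12 higher. The kinesin heavy chain gene Kif5b had -0.45 (SE 0.17, adjusted p = 0.484) and the dynein light chain gene Dynll1 0.38 (SE 0.15, adjusted p = 0.519) in E1 against WT. Disc1 had 0.44 (SE 0.23) and Armcx1 -0.23 (SE 0.10) in KI-96 against WT, and Disc1 had 0.56 (SE 0.26) and Dynll1 -0.55 (SE 0.18) in KI-96 against E1.

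The KI-96 values of these lists depended in part on KI-96 replicate 3. Without it 14 of 19 other fusion genes had higher estimates in KI-96 against WT (median 0.09) and 11 of 19 in KI-96 against E1 (median 0.07), so that both medians turned positive. The medians of other fission genes became -0.00 in KI-96 against WT and -0.01 in KI-96 against E1. Those of biogenesis genes were -0.00 and 0.04, of mitophagy genes 0.07 and 0.05 and of transport genes 0.09 and 0.17, again with 0 genes past the adjusted threshold. Leaving out E1 replicate 4 instead, 1 biogenesis, 1 mitophagy and 3 transport genes passed in E1 against WT, where 257 of 18676 genes did. In KI-96 against E1 1 biogenesis and 2 transport genes then passed, where 190 of 18676 genes did.

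**Figure D5:**
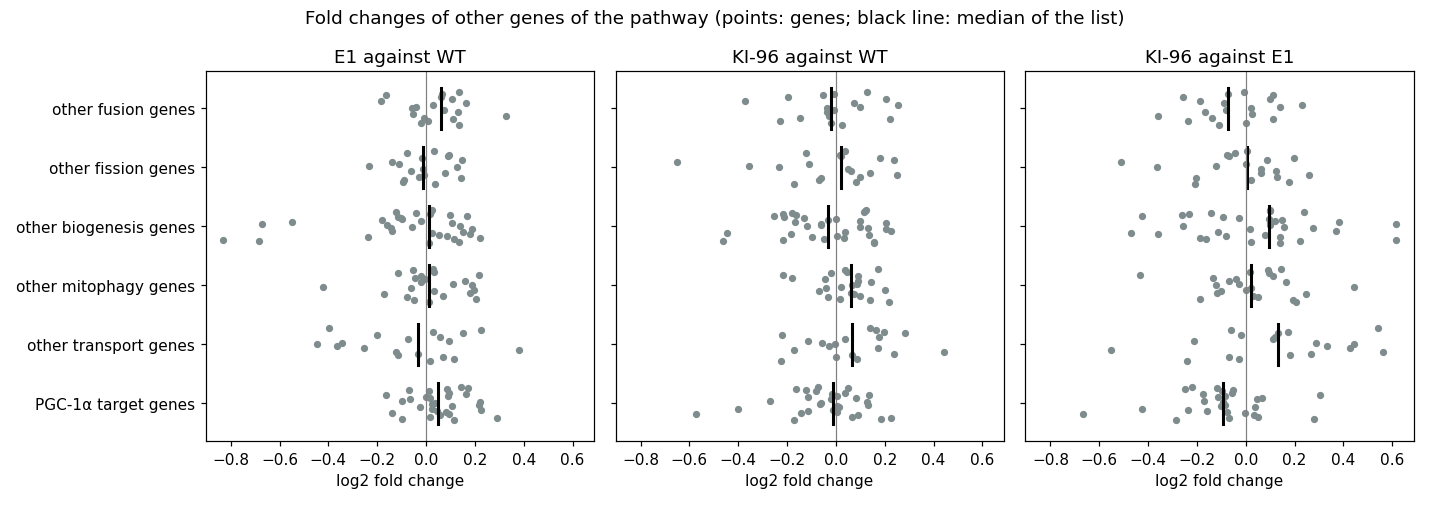
Log2 fold changes of other genes of the pathway in E1 against WT, KI-96 against WT and KI-96 against E1, grouped as other fusion, fission, biogenesis, mitophagy and transport genes and PGC-1α target genes. Each point is 1 gene and each black line the median of its list, which lies between -0.09 and 0.13 in every list and comparison; no gene passed the adjusted threshold.

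Textbook targets of PGC-1α were set beside Ppargc1a. Of 30 tested, 22 had higher and 8 lower estimates in E1 against WT (median 0.05), and 0 passed the adjusted threshold. In KI-96 against WT 14 were higher and 16 lower (median -0.01), and in KI-96 against E1 7 were higher and 23 lower (median -0.09), again with 0 past it. Atf5, a stress-responsive transcription factor, had the highest estimate in E1, where its 4 libraries spanned 21.2 to 23.3 CPM, while the 7 WT libraries spanned 15.96 to 19.97 CPM. Its groups did not overlap, which held for 2 of the 30 targets and for 1.69% of all genes in E1 against WT. The log2 fold change of Atf5 was 0.29 (SE 0.11, adjusted p = 0.514). Sod2, the superoxide dismutase of the mitochondrial matrix, was the lowest at -0.16 (SE 0.12). In KI-96 against WT the extremes were Atf5 at 0.22 (SE 0.11) and the ATP synthase subunit gene Atp5o at -0.57 (SE 0.38), which has few counts and overlapping gene models and is uncertain. Sod2 had 0.30 (SE 0.14) and Atp5o -0.67 (SE 0.42) in KI-96 against E1. The summed level of the 30 targets was 6181 to 6567 CPM in E1, 4726 to 7084 in KI-96 and 5562 to 6422 in WT, with the lowest in KI-96 replicate 3. KI-96 replicates 1, 2 and 4 had 7084, 6654 and 6652 CPM, above all E1 and all WT libraries. Without KI-96 replicate 3 the direction turned: 20 of 30 targets had higher estimates in KI-96 against E1 (median 0.05) and 22 of 30 in KI-96 against WT (median 0.11), with 0 past the adjusted threshold.

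Of the 13 mRNAs of the mitochondrial genome 12 were tested, all but mt-Atp8, and 0 passed in any comparison. Their medians were 0.02 in E1 against WT, 0.09 in KI-96 against WT and -0.03 in KI-96 against E1, the last turning to 0.16 without KI-96 replicate 3. The summed level was 39198 to 48789 CPM in E1, 27715 to 58370.4 in KI-96 and 36922 to 50694 in WT. mt-Nd4, a complex I subunit, had 3739 ± 1352 CPM in KI-96 (SD, n = 4) and 4327 ± 529.5 CPM in WT (n = 7), a log2 fold change of -0.21 (SE 0.18). The highest estimates were 0.40 (SE 0.50) for mt-Nd3 in E1 against WT and 0.91 (SE 0.46) for mt-Atp6 in KI-96 against WT, both at low counts and with near-identical copies in the nuclear genome, and so are uncertain. Immediate early genes, which neurons switch on with activity, were measured beside Ppargc1a. All 21 had higher estimates in E1 against WT (median 0.73, 1 past the adjusted threshold, Dusp5), and 4 of 21 had higher estimates in KI-96 against WT (median -0.23, 0 past it). In KI-96 against E1 all 21 had lower estimates (median -0.94, 0 past it). Of the 21, 19 had an unadjusted edgeR p under 0.05, where 14.3% of all genes did. Without E1 replicate 4, 4 of these genes passed in E1 against WT and 3 in KI-96 against E1. Of 18676 genes in all, 257 and 190 then passed. Their summed level was 1868 to 2957 CPM in E1, 1078 to 1771 in KI-96 and 1112 to 1893 in WT, with the lowest E1 value, inside the WT range, in replicate 4. Their part in the Ppargc1a values was not tested.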

How the data were processed

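RNA from the striatum of 15 mice was sequenced. The values deposited by the authors are raw read counts for each gene and mouse, with column totals of 14678565 to 26388542. Tools listed in the submitters' processing notes, without roles or settings, are STAR, HTSeq and DESeq2 1.24.0, and the build is GRCm38. Of 54232 identifiers, 54165 matched a GRCm38 annotation after the version was dropped, and symbols, coordinates and exonic lengths come from it.

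Genes were filtered with edgeR 4.0.16 (minimum count 10 by group), scaled by the trimmed mean of M-values and fitted with its robust quasi-likelihood model over all 15 libraries with group as the factor. The 3 contrasts were tested two-sided and adjusted with Benjamini-Hochberg over 18278 genes, at a threshold of 0.05. CPM use the scaled library sizes, log2 CPM a prior count of 2, and TPM the exonic length. Spread of CPM between libraries includes counting error, which weighs most for the genes with the fewest reads. The lowest count of the 10 genes in a library was 399, for Tfam.

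Libraries come from differently numbered mice, and the 33 pairs within groups all differed beyond sampling noise (chi-square per degree of freedom at least 8.59). The 10 genes and the lists of other genes were chosen with earlier results of these data known. The rule for other named genes was the highest and the lowest estimate per list and comparison among genes of at least 1 CPM, every called gene, and the 3 most similar patterns per gene; Ppargc1b, Ppara, Esrra, Miga1 and Miga2 were named outside it. Alternatives were another scaling, no filter, DESeq2 1.42.0, limma-voom (limma 3.58.1), 2-group fits, a replicate block, covariates and libraries left out. Tests were run on simulated data first. 1 gene of a marker list is not reported here.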

Additional observations from a re-analysis of the deposited data

How the results depend on the processing

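Over 27 alternatives, 16 of the 30 fold changes (10 genes, 3 comparisons) never changed sign. The count of genes called was 0 in each comparison except 1 with DESeq2 in KI-96 against WT (Mfn2, 0.50) and 0 to 1 with libraries left out in E1 against WT, where Ppargc1a passed without E1 replicate 4. No other alternative called a gene among the 10.

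In E1 against WT the median of the 10 genes was -0.077 with the Y-linked covariate, where Mfn2 was -0.10, Mff 0.082 and Rhot1 -0.065. With both E1 libraries and the WT library of high cortical markers left out, Mff was 0.0056, Tfam -0.0071, Pink1 0.061 and Rhot1 -0.017, and without KI-96 replicate 3 as well they were 0.011, -0.0025, 0.067 and -0.012. Mff was 0.019 without WT replicates 5, 6 and 7, the deepest libraries. In KI-96 against WT the median was -0.12 with library totals only, -0.0076 with the Y-linked covariate (Fis1 0.10) and -0.027 without WT replicates 5, 6 and 7 (Tfam 0.018). Without KI-96 replicate 3 and the 3 cortical libraries Opa1 was -0.060, Dnm1l -0.055 and Fis1 0.072. In KI-96 against E1 Mfn1 was -0.0099 with library totals only and -0.022 with the cortical covariate or without the 3 cortical libraries. The setting that leaves out KI-96 replicate 3 with the cortical libraries and the one without WT replicates 5, 6 and 7 were chosen after seeing the data, as were the values of gene lists, sums, spread and similar patterns with 1 library left out. The cause of these shifts was not tested.

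With 1 library left out at a time the median of the 10 genes was -0.033 to 0.0068 in E1 against WT, -0.096 to -0.039 in KI-96 against WT and 0.014 to 0.068 in KI-96 against E1. The signs that changed in E1 against WT were those of Dnm1l (-0.052 to 0.0066), Fis1 (-0.019 to 0.055), Mff (-0.046 to 0.028) and Pink1 (-0.078 to 0.00089). In KI-96 against WT they were those of Opa1 (-0.035 to 0.20), Dnm1l (-0.043 to 0.098), Fis1 (-0.25 to 0.048) and Tfam (-0.077 to 0.0018), and in KI-96 against E1 those of Mfn1 (-0.039 to 0.096), Dnm1l (-0.018 to 0.12) and Fis1 (-0.26 to 0.029).

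Mice were not paired by replicate number in the main fit, and the mouse numbers in the labels differ. The correlation of same-numbered libraries was -0.10 to 0.19. Differently numbered libraries were not set beside it, so this range does not settle whether the numbers pair mice. With the replicate block the median was -0.015 in KI-96 against WT, with Tfam at 0.021, and Mff was 0.019 in E1 against WT. Over all genes the block called 4, 6 and 0 genes in E1 against WT, KI-96 against WT and KI-96 against E1, against 1, 0 and 0 without it. DESeq2 called 53, 66 and 206. Without E1 replicate 4 edgeR called 257, 0 and 190, without KI-96 replicate 4 it called 0, 2 and 128, and without WT replicate 1 it called 12, 11 and 1.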
